A study of Mus musculus with 54 samples.

Results

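ATF4 and the genes it drives in the integrated stress response were followed in the wall of mouse ovarian follicles. They were 10 genes, taken by symbol from the 25149 in the deposited tables. Atf4, Atf5 and Ddit3 encode transcription factors of the basic leucine zipper type. Trib3 and Chac1 encode a pseudokinase that restrains ATF4 and an enzyme that degrades glutathione. Asns, Psat1 and Phgdh encode enzymes that make asparagine and serine. Eif4ebp1 and Sesn2 encode a repressor of cap-dependent translation and a leucine sensor that restrains TOR complex 1.

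Secondary follicles from CD-1 female mice aged 14 to 16 days were cultured in alginate for 8 days, reached the antral stage and then spent 12 h in maturation medium with or without human chorionic gonadotropin (hCG), an analog of luteinizing hormone. Both media held serum, epidermal growth factor and recombinant FSH. Each follicle was microdissected into the side that ruptures and the opposite, unruptured side, and RNA from each piece was amplified by Smart-Seq2, a protocol for very small inputs. The groups were the putative unruptured side without hCG (n = 15 libraries), the putative ruptured side without hCG (n = 14), the unruptured side post-hCG (n = 12) and the ruptured side post-hCG (n = 13), 54 libraries in all. The labels name no allele beyond the CD-1 stock. In the no-hCG groups no rupture had occurred, and the sides were assigned from morphology, which limits them as a model of a rupture site. The tissue label reads cumulus-oocyte complex, but by the study's methods these complexes had been removed and the follicle wall was sequenced. The labels do not tie libraries to follicles or animals, so p-values measure the spread between libraries.

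In the integrated stress response, kinases that sense amino acid shortage, misfolded protein, heme shortage or double-stranded RNA phosphorylate the alpha subunit of the initiation factor eIF2. General translation then falls, while Atf4 mRNA, whose leader holds upstream reading frames, is translated more. ATF4 activity is therefore set largely at the level of protein, and the mRNA levels given here do not measure it. ATF4 induces amino acid synthesis, amino acid transport and tRNA charging, and its partner gene Ddit3, which encodes CHOP, is known for a role in cell death under prolonged stress. In the ovulatory follicle the luteinizing hormone signal acts through its receptor on mural granulosa and theca cells.

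All 10 genes are annotated as protein coding on GRCm38. Atf4 lies on chromosome 15 (80255184 to 80257541, plus strand), Eif4ebp1 on chromosome 8 (27260329 to 27276674, plus strand), Sesn2 on chromosome 4 (132492032 to 132510501, minus strand) and Psat1 on chromosome 19 (15904678 to 15947337, minus strand). The annotation sets limits for several of them. Sesn2 shares 6089 bases of its span with Gm12981 on the same strand, and Psat1 shares 556 bases with the pseudogene Gm3329 on the opposite strand, neither of which is a row of the tables. Ddit3 overlaps Mars on the opposite strand by 68 bases, and Atf5 overlaps Nup62 and Il4i1 by 571 and 272 bases, so reads from these stretches cannot be told apart without strand. The Phgdh transcript matched 9 processed pseudogenes at 95% identity or more, and its counts are uncertain to that extent. No other gene of the 10 had such a match over 200 bases or more.

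ATF4 binds composite elements with the core TGATGNAA. This core, read on both strands, occurred in 3 of the 11 RefSeq promoter windows that matched 9 of the 10 genes, and in 3.97% of all 32851 windows of the same length. The windows that held it were those of Asns, Chac1 and Trib3. In Trib3 it lay downstream of the RefSeq start but upstream of the start annotated by GENCODE (152344032, minus strand). The bases there were not found in an annotated Trib3 transcript. A related letter run, TGACGCAA, occurred in the Chac1 window and in 0.49% of all windows. A match is a run of letters and not a measured binding site. Atf4 and Psat1, which were higher post-hCG on both sides below, held neither run in their windows. Whether a match goes with a rise was not tested. The Asns and Chac1 stretches are shown because both genes were also higher post-hCG below. They run 5′ to 3′ on the strand of the gene, with the matched letters in capitals; in Asns the match begins 23 bases before the RefSeq start, and the stretch is part of the leader in a longer annotated transcript. The second run of capitals in Chac1 is the core on the opposite strand, beginning 193 bases before the start.
Asns (GRCm38.p6, chr6:7693214-7693243, minus strand): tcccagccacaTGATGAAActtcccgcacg
Chac1 (GRCm38.p6, chr2:119350992-119351101, plus strand): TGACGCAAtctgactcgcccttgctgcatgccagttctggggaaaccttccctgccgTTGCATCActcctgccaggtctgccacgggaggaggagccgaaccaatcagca

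Total counts per library ran from 1497071 to 2834734 (median 2157092), and a count of 0 allowed up to 1.06 CPM (library-scaled counts) in the deepest library and 2.004 CPM in the shallowest, from counting error alone. Marker genes described what each group held. The 10 granulosa markers summed to a median of 11495 CPM on the putative unruptured side and 41484 CPM on the putative ruptured side. Post-hCG the medians were 3848 CPM on the unruptured side and 3673 CPM on the ruptured side. Without hCG 8 of the 9 granulosa markers tested were higher on the putative ruptured side and 0 were lower. Only 1 of the 10, Amh, a defining gene of growing follicles, was at 0 in every ruptured-side library. The 10 theca and stroma markers summed to 197 to 17076 CPM (median 2904) and 17.1 to 2964 CPM (median 198) on the 2 putative sides, unruptured first, and to 340 to 8225 CPM (median 1565) and 29.8 to 384 CPM (median 36.1) on these sides post-hCG, where Cyp17a1, which defines theca cells, was at 0 in every ruptured-side library. Cumulus markers had group medians of 29.3 to 127 CPM and immune markers of 1.80 to 58.4 CPM, the latter highest on the putative unruptured side. The oocyte sum had medians of at most 0.5 CPM and exceeded 10 CPM in 5 libraries, with the highest at 325 CPM in a putative unruptured library. Group medians were 4.12 to 34.0 CPM for endothelial, 3.595 to 77.6 CPM for smooth muscle and 9.89 to 22.7 CPM for surface epithelium markers. In bulk tissue, fewer cells of a type and less RNA per cell cannot be told apart.

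Levels between genes were compared per transcript length, in TPM. On the putative unruptured side Eif4ebp1 had the highest median (94.9 TPM), followed by Atf4 (49.4 TPM), Phgdh (13.02 TPM), Asns (5.65 TPM), Ddit3 (3.35 TPM), Psat1 (1.98 TPM), Sesn2 (1.91 TPM), Atf5 (0.70 TPM) and Trib3 (0.23 TPM), and Chac1 had a median of 0. Atf4 lay above Phgdh without overlap of the libraries in all 4 groups. Eif4ebp1 and Atf4 did not overlap on the putative ruptured side or on the unruptured side post-hCG, where their lowest and highest libraries were 129.5 TPM and 104 TPM. On the ruptured side post-hCG they did overlap, with medians of 65.1 TPM for Eif4ebp1 and 63.8 TPM for Atf4. Most neighbours from Asns down overlapped in every group, so their order is not fixed by these libraries.

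**Figure D1:**
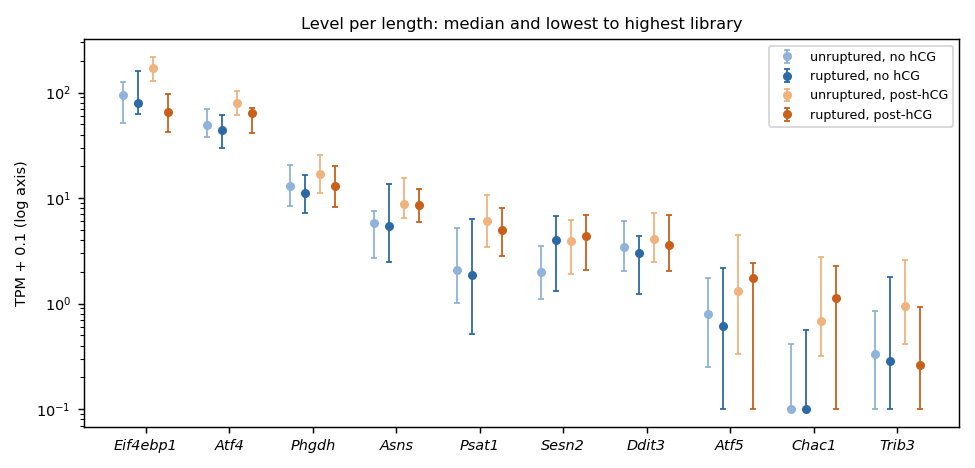
Level per transcript length of the 10 genes in TPM + 0.1 on a log axis, with a point at the group median and a bar from the lowest to the highest library of each of the 4 groups. Eif4ebp1 and Atf4 sit highest, with medians from 44.2 to 170 TPM, and Atf5, Chac1 and Trib3 sit lowest.

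The effect of hCG was tested on each side. On the unruptured side 7 of the 10 genes passed the expression filter and 5 were higher post-hCG (edgeR, FDR under 0.05), against 53.1% of all 9320 genes called in either direction (25.4% higher, 27.7% lower). On the ruptured side 6 passed and 4 were higher, against 60.1% of 8531 genes called (29.7% higher, 30.4% lower). Atf4, Asns and Psat1 were the 3 genes called on both sides. The hCG comparisons and the side comparisons share libraries, so their calls are not independent. The granulosa marker sum was lower post-hCG on both sides, as given above, and its part in these differences was not tested.

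Values within a gene are given in CPM scaled by TMM, a factor that removes differences in library composition. On the unruptured side Atf4 ran from 90.0 to 169 CPM (median 113) without hCG and from 141 to 256 CPM (median 185) post-hCG. Across the ruptured side it ran from 85.4 to 152 CPM (median 101) without hCG and from 112 to 206 CPM (median 176) post-hCG. The groups overlapped on both sides, but all 12 and all 13 post-hCG libraries lay above the median of their no-hCG group. Atf4 rose by 0.64 on the log2 scale on either side (SE 0.11, FDR 1.43e-05 unruptured; SE 0.097, FDR 1.18e-06 ruptured; edgeR). The interaction of side and hCG was -0.01 (SE 0.15, FDR 0.979).

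**Figure D2:**
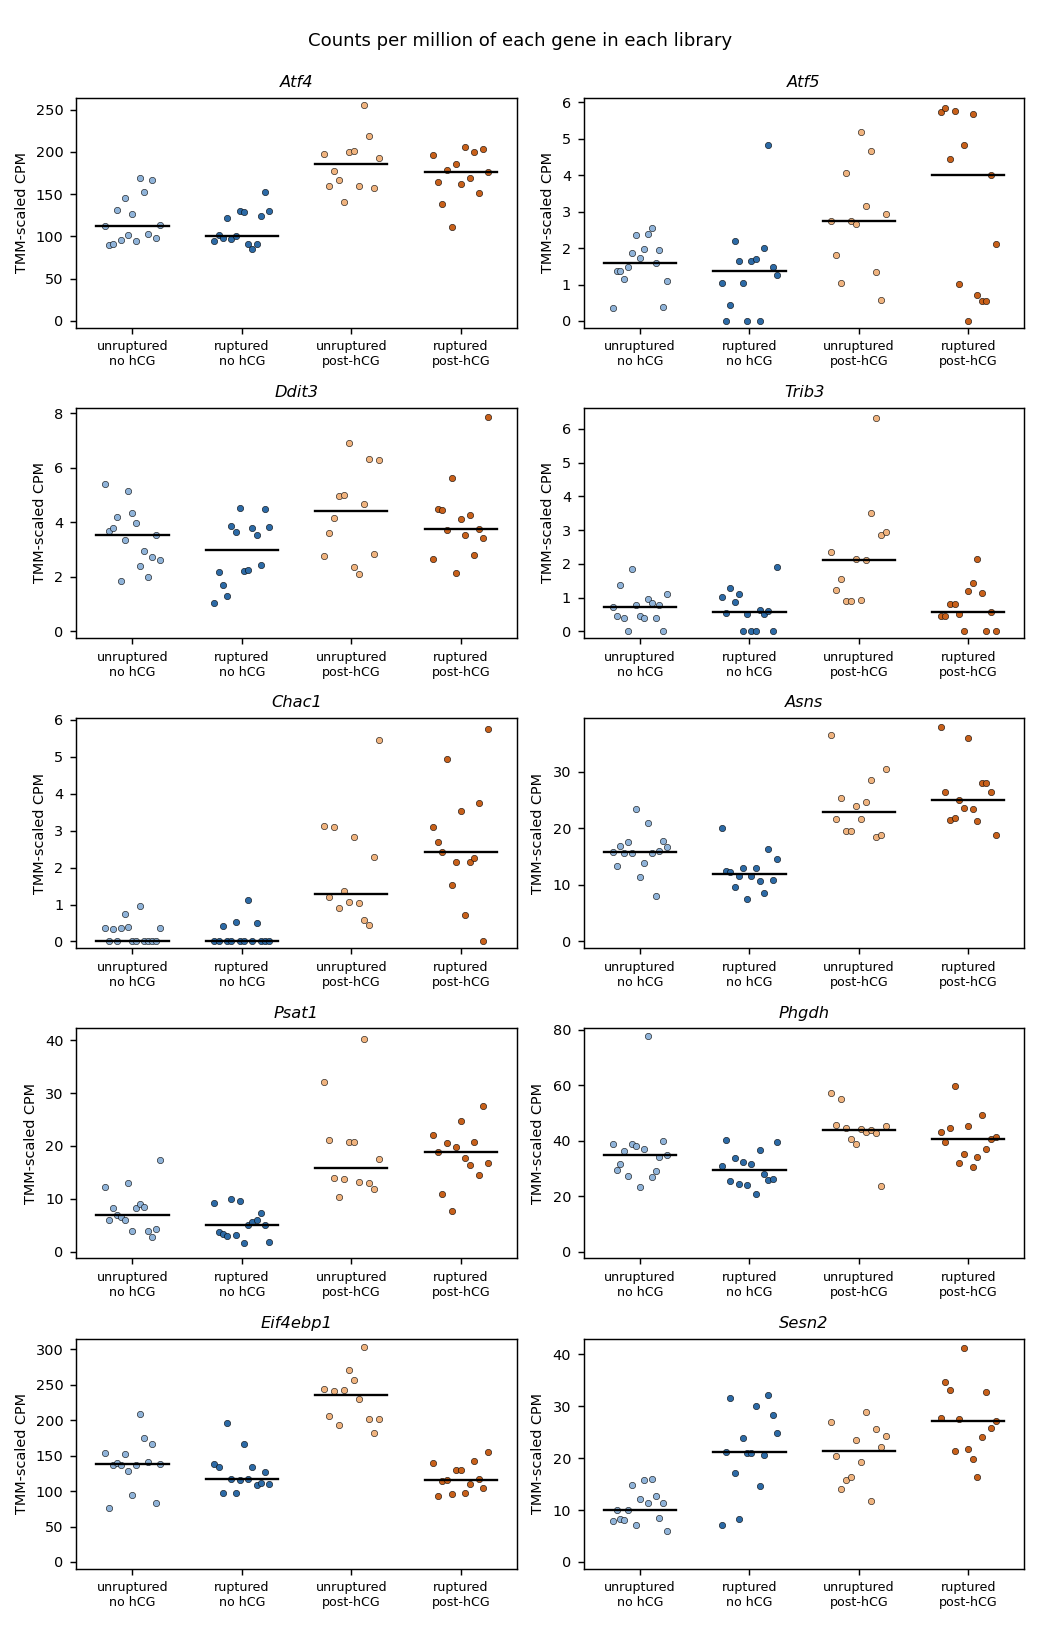
TMM-scaled CPM of each of the 10 genes, with 1 point per library and a line at the median of each of the 4 groups; each panel has its own linear axis. Eif4ebp1 stands at 183 to 304 CPM on the unruptured side post-hCG, above every library of the ruptured side post-hCG, and Psat1 and Asns are higher post-hCG on both sides.

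Ddit3 and Atf5, the other transcription factors, were far less abundant. Ddit3 ran from 1.84 to 5.41 CPM (median 3.54) in putative unruptured libraries and from 2.10 to 6.92 CPM (median 4.41) on that side post-hCG. Its ruptured-side medians were 2.97 CPM without hCG and 3.77 CPM post-hCG. The difference on the unruptured side did not pass (log2 0.33, SE 0.20, FDR 0.174), and on the ruptured side the gene was under the filter, with a value of 0.49 in the unfiltered fit (SE 0.25, FDR 0.129) and of 0.49 with all 4 groups in one fit (FDR 0.0492). All 4 groups overlapped. Atf5 had medians of 1.59, 1.38, 2.74 and 4.01 CPM on the putative unruptured side, the putative ruptured side, the unruptured side post-hCG and the ruptured side post-hCG. Its spread on the ruptured side post-hCG was wide, from 0 to 5.84 CPM. It was under the filter everywhere; with no filter it was higher post-hCG by 0.79 on the unruptured side (SE 0.30, FDR 0.0458) and by 1.21 on the ruptured side (SE 0.45, FDR 0.0321), both close to the threshold.

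Chac1 and Trib3 were also under the filter in all comparisons, and their counts were few. Chac1 counts summed to 9 over the 15 putative unruptured libraries, with 8 at 0, and to 50 over the 12 libraries of that side post-hCG, with none at 0. Ruptured-side counts summed to 5 over 14 libraries without hCG, 10 of which were at 0, and to 70 over 13 libraries post-hCG, 1 of which was at 0. Post-hCG libraries were thus mostly above 0 and no-hCG libraries mostly at 0. With no filter Chac1 was higher post-hCG by 2.81 on the log2 scale on the unruptured side (SE 0.48, FDR 1.31e-05) and by 3.47 on the ruptured side (SE 0.51, FDR 4.86e-07; edgeR), and these fitted sizes depend on the prior count. Trib3 showed a different order of the groups. Its counts summed to 27, 17 and 17 on the putative unruptured side, the putative ruptured side and the ruptured side post-hCG, and to 57 on the unruptured side post-hCG, where the libraries ran from 0.91 to 6.31 CPM (median 2.11). With no filter it was higher post-hCG on the unruptured side (log2 1.63, SE 0.38, FDR 0.000902) and lower on the ruptured than on the unruptured side post-hCG (log2 -1.67, SE 0.43, FDR 0.00622). On the ruptured side the effect of hCG was 0.11 (SE 0.51, FDR 0.899), and the interaction was -1.53 (SE 0.65, FDR 0.223), so a difference of the hCG effect between the sides was not called.

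Of the members that passed the filter, Psat1 had the largest fitted rise post-hCG on both sides. Psat1, which makes phosphoserine, ran from 2.72 to 17.4 CPM (median 6.89) in putative unruptured libraries and from 10.4 to 40.3 CPM (median 15.8) on that side post-hCG. In ruptured-side libraries it ran from 1.66 to 9.94 CPM (median 5.03) without hCG and from 7.65 to 27.5 CPM (median 18.9) post-hCG, where 12 of 13 libraries lay above every no-hCG library. Psat1 rose by 1.28 (SE 0.23, FDR 2.66e-05) and by 1.76 (SE 0.21, FDR 1.66e-08). The interaction was 0.48 (SE 0.33, FDR 0.418), so the larger value on the ruptured side was not a called difference.

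Asns, asparagine synthetase, ran from 7.97 to 23.3 CPM (median 15.9) in putative unruptured libraries and from 18.5 to 36.5 CPM (median 22.8) on that side post-hCG. In ruptured-side libraries it ran from 7.53 to 20.0 CPM (median 12.0) without hCG and from 18.9 to 37.99 CPM (median 25.0) post-hCG, with 12 of 13 libraries above every no-hCG library. Asns rose by 0.61 (SE 0.13, FDR 0.000144) and by 1.07 (SE 0.13, FDR 1.28e-08), with an interaction of 0.46 (SE 0.18, FDR 0.0977). Phgdh, which begins serine synthesis, had the smallest log2 changes of the 3 enzymes. Its medians were 34.9 and 44.1 CPM without and post-hCG on the unruptured side (log2 0.28, SE 0.14, FDR 0.0815) and 29.5 and 40.7 CPM on the ruptured side (log2 0.45, SE 0.10, FDR 0.000444). The highest putative unruptured library, at 77.7 CPM, exceeded every post-hCG library. When the 4 unruptured-side libraries whose oocyte markers exceeded 10 CPM were left out, a step added once the data had been seen, the value on that side was 0.43 with an FDR of 0.00208. Over all 12 alternatives run, Phgdh was called on the unruptured side in 6, with values from 0.09 (library totals, FDR 0.575) to 0.43. With library totals the value on the ruptured side was 0.13 with an FDR of 0.365.

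Among the members that passed the filter, Eif4ebp1 and Sesn2 were called between the sides. Post-hCG, 6 of the 10 genes passed the filter and 1 was called, lower on the ruptured side, against 21.4% of 8585 genes called (10% higher, 11.3% lower). Without hCG, 6 passed and 1 was called, higher on the putative ruptured side, against 17.8% of 9063 genes called (8.84% higher, 8.96% lower). In the interaction 7 passed and 1 was called, against 8.91% of 10013 genes called (4.25% higher, 4.65% lower).

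**Figure D3:**
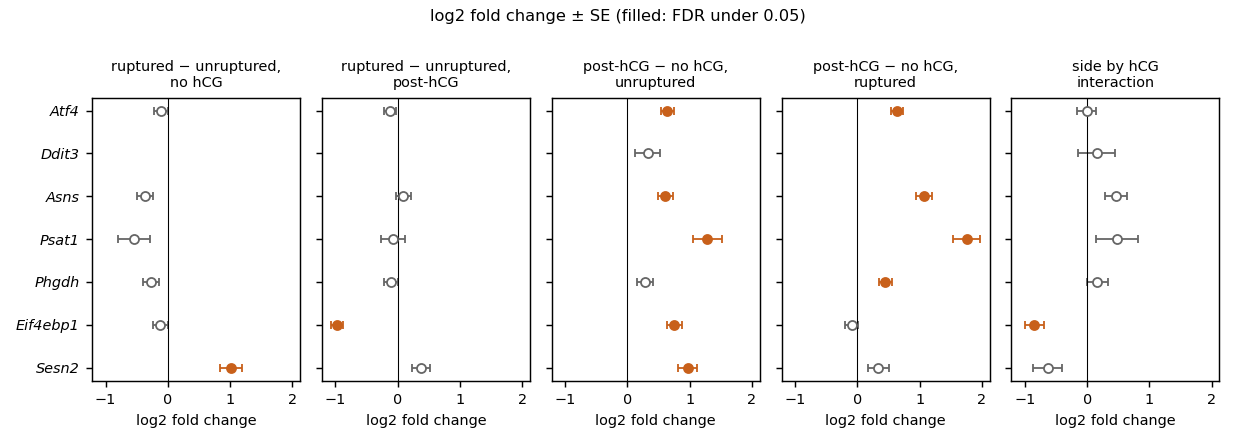
Log2 fold change with its SE for the genes that passed the filter in each of 5 comparisons; filled points had an FDR under 0.05 and a missing point was under the filter. Eif4ebp1 lies at -0.97 between the sides post-hCG and Sesn2 at 1.02 between the putative sides without hCG.

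Eif4ebp1 encodes 4E-BP1, which binds the cap-binding factor eIF4E and is released from it when TOR complex 1 is active. Post-hCG it ran from 183 to 304 CPM (median 235) in unruptured-side libraries and from 93.0 to 155 CPM (median 116) in ruptured-side libraries. The sides did not overlap, and how many of all genes were separated in this way was not counted. Eif4ebp1 was 0.97 lower on the log2 scale on the ruptured side post-hCG (-0.97, SE 0.092, FDR 1.28e-08; edgeR). Without hCG the putative sides overlapped, with 76.2 to 208 CPM (median 138) and 96.6 to 196 CPM (median 117), and the difference was -0.12 (SE 0.12, FDR 0.553). The change with hCG was 0.75 on the unruptured side (SE 0.12, FDR 2.47e-06) and -0.09 on the ruptured side (SE 0.10, FDR 0.447). The test of that difference, the interaction, gave -0.85 (SE 0.16, FDR 0.000271). The unruptured side post-hCG was thus the group that stood apart, and the other groups had medians of 116 to 138 CPM.

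Theca and stroma markers moved with the side in both media. Their medians, unruptured side first, were 1565 and 36.1 CPM post-hCG and 2904 and 198 CPM without hCG. Their part in the Eif4ebp1 difference was not tested. With library totals in place of TMM the Eif4ebp1 value on the ruptured side was -0.42 with an FDR of 0.00125, and with limma on log2(TPM + 1) it was -0.34 with an FDR of 0.0306, so that its lack of a call there depends on the processing, while the interaction was called under every alternative run, with values from -1.25 to -0.81.

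Without hCG Sesn2, a sestrin induced by both ATF4 and p53, ran from 5.93 to 16.1 CPM (median 10.1) in putative unruptured libraries and from 7.18 to 32.1 CPM (median 21.1) on the putative ruptured side. In 11 of 14 putative ruptured libraries it exceeded every putative unruptured library. Sesn2 was 1.02 higher on the putative ruptured side (SE 0.18, FDR 0.000184), and it remained called without any of the 29 libraries in turn. Post-hCG it ran from 11.7 to 28.9 CPM (median 21.3) in unruptured-side libraries and from 16.4 to 41.3 CPM (median 27.2) in ruptured-side libraries, a difference of 0.38 (SE 0.14, FDR 0.0528) that lay at the threshold. It ranged from 0.07 with limma on log2(TPM + 1) (FDR 0.787) to 0.42 over the alternatives, with 0.23 under library totals (FDR 0.344), and with RLE size factors the FDR was 0.0479. The change with hCG was 0.97 on the unruptured side (SE 0.15, FDR 3.83e-06) and 0.34 on the ruptured side (SE 0.17, FDR 0.0912), with an interaction of -0.64 (SE 0.24, FDR 0.08). Both called differences are measured from the putative unruptured libraries, which held the lowest median. Beside the side difference, granulosa markers were higher on the putative ruptured side and theca and stroma markers lower, as given above, and their part was not tested.

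The other members that passed the filter were not called between the sides. Without hCG, Asns was -0.37 (SE 0.13, FDR 0.0532), Psat1 -0.54 (SE 0.26, FDR 0.148), Phgdh -0.27 (SE 0.13, FDR 0.167) and Atf4 -0.11 (SE 0.11, FDR 0.572) on the putative ruptured side. Asns lay at the threshold, and its value depended on the processing: -0.41 with library totals (FDR 0.0363), -0.27 with thinned counts (FDR 0.248) and -0.03 with limma on log2(TPM + 1) (FDR 0.945). Post-hCG, Atf4 was -0.12 (SE 0.096, FDR 0.413), Phgdh -0.11 (SE 0.11, FDR 0.532), Psat1 -0.07 (SE 0.20, FDR 0.847) and Asns 0.09 (SE 0.12, FDR 0.654). With limma on log2(TPM + 1) Atf4 was -0.38 with an FDR of 0.00995, on a scale where the median of all genes was itself -0.21, against 0.01 under TMM.

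Few pairs of members varied together from library to library. Over the 54 libraries, with group means removed from log2(CPM + 1), 1 of 45 pairs passed an adjusted p of 0.05 by Pearson's r, while the lowest adjusted p by Spearman's rho was 0.141 (Benjamini-Hochberg over the pairs, two-sided permutation within groups). That pair was Atf4 with Eif4ebp1 (r = 0.463, permutation p = 0.00085, adjusted p = 0.0382; rho = 0.383, permutation p = 0.00563, adjusted p = 0.141), and r was 0.39 without the 2 libraries farthest from the median of Atf4. Within the groups r was 0.627, 0.244, 0.509 and 0.33 in the order of the groups above. The median r over the pairs was 0.09, with a range from -0.35 to 0.46. The genes most like Atf4 in this measure, of 6807 whose mean reached 10 CPM, were G3bp1 (r = 0.671), Trp53 (0.614), Snu13 (0.612), RP23-264J18.3 (0.59) and Ifrd1 (0.59). A mean z score was taken over the members that reached the same mean, which were Atf4, Asns, Psat1, Phgdh, Eif4ebp1 and Sesn2. The genes most like it were Cct5 (r = 0.744), Rpl26 (0.744), Cct7 (0.709), Eif6 (0.702) and Ran (0.701), and the points share library depth and scaling.

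The rest of the pathway was read from lists. The 4 eIF2 kinases had FDRs of 0.232 or more between the sides in either medium. With limma on log2(TPM + 1), 2 were called lower on the ruptured side post-hCG. These were Eif2ak1 (-0.325, FDR 0.0378) and Eif2ak2 (-0.534, FDR 0.0164), on a scale where the median of all genes was -0.21. Eif2ak2, which encodes the double-stranded RNA sensor PKR, fell post-hCG by 0.70 on the unruptured side (SE 0.14, FDR 7.88e-05) and by 1.00 on the ruptured side (log2 -1.005, SE 0.15, FDR 1.07e-06). Eif2ak4, which encodes the amino acid sensor GCN2, was higher by 0.34 (SE 0.13, FDR 0.0325) and 0.31 (SE 0.13, FDR 0.0461). Eif2ak1, the heme-regulated kinase, was higher on the unruptured side (0.44, SE 0.12, FDR 0.00291) and had a value of 0.23 on the ruptured side (FDR 0.0741). With library totals the higher calls were lost: Eif2ak4 was 0.11 (FDR 0.516) and 0.00 to 2 decimals (FDR 0.988), and Eif2ak1 was 0.21 (FDR 0.211) on the unruptured side. Eif2ak4 also missed the threshold with DESeq2 (FDR 0.0549 and 0.0768). The fall of Eif2ak2 on the unruptured side was -0.18 (FDR 0.413) with limma on log2(TPM + 1). Eif2ak3, which encodes PERK, was not called on either side (0.18, FDR 0.564, and 0.46, FDR 0.0538). Of 10 subunits of eIF2, its exchange factor eIF2B and its phosphatases, 2 were higher and 2 lower post-hCG on the unruptured side and 4 higher and 2 lower on the ruptured side, beside 53.1% and 60.1% of all genes called on these sides. With library totals the balance turned, to 4 lower on the unruptured side and to 1 higher and 4 lower on the ruptured side. Ppp1r15a, which encodes the stress-induced phosphatase subunit GADD34, was higher on the putative ruptured side (0.67, SE 0.13, FDR 0.00032) and fell by 0.77 with hCG on the ruptured side (SE 0.12, FDR 9.2e-07).

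Among partners and feedback factors of the leucine zipper proteins, 7 of 11 passed the filter in each hCG comparison. On the unruptured side 2 (28.6%) were higher and 4 (57.1%) lower, against 25.4% and 27.7% of all genes. On the ruptured side 1 (14.3%) was higher and 4 (57.1%) lower, against 29.7% and 30.4%. DESeq2 tested all 11, with 4 higher and 4 lower on the unruptured side and 3 higher and 4 lower on the ruptured side. Library totals gave 1 higher and 4 lower on either side, so the balance depends on the processing. The tribbles genes moved in opposite directions. Trib2 fell by 2.63 (SE 0.18, FDR 1.05e-13) and by 3.54 (SE 0.23, FDR 6.6e-15), and Trib1 rose by 1.26 (SE 0.11, FDR 2.3e-11) and by 1.45 (SE 0.13, FDR 2.03e-11). Nupr1, a stress-induced chromatin protein, was 2.01 higher on the putative ruptured side (SE 0.31, FDR 2.34e-05), fell by 3.75 with hCG on the ruptured side (SE 0.35, FDR 6.23e-11) and had an interaction of -2.61 (SE 0.44, FDR 9.28e-05).

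Known ATF4 targets outside the 10 genes were read beside the 25.4% and 29.7% of all genes called higher post-hCG on the unruptured and ruptured side. Of 8 measured genes of serine and one-carbon metabolism, 4 were higher and 1 lower on the unruptured side, with a list median of 0.37 against -0.03 over all genes tested, and 5 were higher and 1 lower on the ruptured side (median 0.42 against 0.00 to 2 decimals). Mthfd2, a mitochondrial folate enzyme, rose by 2.002 (SE 0.17, FDR 1.03e-11) and by 2.40 (SE 0.13, FDR 1.76e-16). Shmt2, which splits serine to feed that pathway, rose by 1.87 (SE 0.16, FDR 7.57e-12) and by 1.12 (SE 0.12, FDR 2.64e-09), with an interaction of -0.75 (SE 0.20, FDR 0.0119). Of the amino acid transporters, 4 of 7 were higher and 1 lower on the unruptured side and 4 of 8 higher and 2 lower on the ruptured side. Slc3a2, the shared heavy chain of several transporters, rose by 2.28 on both sides (SE 0.17, FDR 3.93e-13 and 2.88e-13), and Slc7a1, which imports cationic amino acids, by 1.57 and 1.92 (SE 0.13 and 0.12, FDR 9.95e-12 and 4.08e-15). Slc7a11, the cystine importer, fell by 1.57 on the unruptured side (SE 0.23, FDR 7.12e-07). With library totals the serine and the transporter lists each held 3 higher and 2 lower on either side. Of the secreted and signaling targets, 3 of 3 and 2 of 2 measured were higher post-hCG. All 3 were lower on the ruptured side post-hCG, against 11.3% of all genes, with Ndrg1 at -1.85 (SE 0.22, FDR 2.56e-07).

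The cytosolic aminoacyl-tRNA synthetases, which charge tRNAs with amino acids, were all measured. Of the 20, 12 (60%) were higher and 1 (5%) lower on the unruptured side, against 25.4% and 27.7% of all genes. On the ruptured side 15 (75%) were higher, against 29.7% of all genes. The list medians were 0.34 (against -0.03 over all genes) and 0.55. Nars rose by 0.73 (SE 0.089, FDR 3.28e-08) and by 1.22 (SE 0.11, FDR 1.74e-11), and Farsb by 0.76 (SE 0.10, FDR 2.34e-07) and 1.18 (SE 0.094, FDR 1.09e-12). With library totals the counts were 7 higher and 4 lower on the unruptured side and 9 higher and 1 lower on the ruptured side. Without hCG 8 (40%) were lower on the putative ruptured side, against 8.96% of all genes, with Rars at -0.75 (SE 0.12, FDR 6.79e-05). In the interaction 5 (25%) were called higher, against 4.25% of all genes, and these calls were lost with library totals.

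Around Eif4ebp1 and Sesn2, 5 of 9 measured regulators of TOR and of eIF4E were higher and 1 lower post-hCG on the unruptured side, and 6 were higher and 2 lower on the ruptured side. With library totals these were 2 higher and 2 lower, and 3 higher and 2 lower. The called shares stand beside 53.1% and 60.1% of all genes. Sesn3, the sestrin related to Sesn2, fell by 1.87 (SE 0.11, FDR 5.5e-15) and by 1.63 (SE 0.13, FDR 1.2e-12), opposite to Sesn2 on the unruptured side. Deptor, a TOR inhibitor, rose by 0.84 (SE 0.089, FDR 1.94e-09) and 0.91 (SE 0.10, FDR 3.61e-09). Eif4e, which encodes the partner of 4E-BP1, rose by 0.77 (SE 0.11, FDR 1.16e-06) and by 1.00 (log2 0.9998, SE 0.12, FDR 8.64e-09).

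Chaperones and folding factors of the XBP1 and ATF6 branches, the parallel arms of the response to misfolded protein, behaved otherwise. Of the 20, 8 (40%) were higher on the putative ruptured side, against 8.84% of all genes. DESeq2 also gave 8 higher, library totals 5 higher and 1 lower, and limma on log2(TPM + 1) 4 higher. Post-hCG 10 (50%) were instead lower on the ruptured side, against 11.3% of all genes. With hCG 6 (30%) were higher and 2 (10%) lower on the unruptured side, against 25.4% and 27.7% of all genes. On the ruptured side 4 (20%) were higher and 13 (65%) lower, against 29.7% and 30.4%. In the interaction 11 (55%) were called lower and 1 (5%) higher, against 4.65% and 4.25% of all genes. Calr was at -1.25 (SE 0.25, FDR 0.000559) and Pdia4 at -0.99 (SE 0.19, FDR 0.000413). Xbp1 was 0.87 lower on the ruptured side post-hCG (-0.87, SE 0.11, FDR 5.98e-07). With library totals the interaction held 13 lower, and those of hCG on the unruptured side 5 and 5, so the balance there depends on the scaling. Theca and stroma transcripts were fewer on the ruptured side in both media. Their medians were 198 against 2904 CPM without hCG and 36.1 against 1565 CPM post-hCG. Their part in the counts of this list was not tested.

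**Figure D4:**
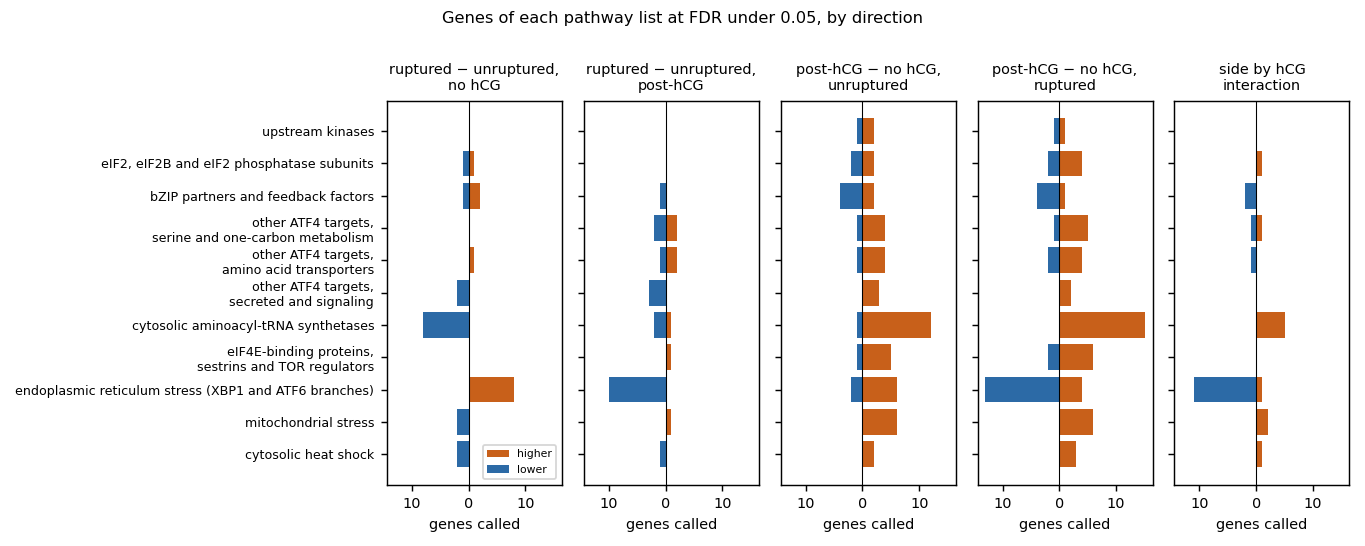
Number of genes of each of 11 pathway lists called at an FDR under 0.05 in 5 comparisons, with genes called higher to the right of 0 and genes called lower to the left. The aminoacyl-tRNA synthetases extend to 12 and 15 higher with hCG, and the endoplasmic reticulum stress list to 13 lower with hCG on the ruptured side.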

How the data were processed

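RNA of follicle sides was read on an Illumina NextSeq from paired-end libraries made with Nextera XT. The authors aligned reads to GRCm38 with HISAT2 and corrected batches with ComBat-seq; the submitters' processing notes also name Seurat 4. They deposited estimated counts per gene, fractions included, and TPM values scaled by transcript length and library. Whether the counts precede the batch correction, the counting program and the use of strand are not given in the sources used here, and no batch is labelled. A deposited metadata text was not used. Every sample column was mapped (0 unmapped).

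The members and lists were chosen with earlier results of these data known. Rounded counts went through edgeR 4.0.16 (R 4.3.3), with its expression filter at a count of 10 and a total of 15 and TMM factors. The quasi-likelihood test was adjusted by Benjamini-Hochberg over all genes tested, with an FDR of 0.05, and the fit was tested on simulated data. Only the groups compared entered a fit, and all 4 the interaction. Levels are TMM-scaled CPM over all 54 libraries. All log2 values are from edgeR unless another tool is named. Values of genes under the filter come from an unfiltered fit. All 10 members are named; from each list at most the 3 genes called with the lowest FDR in a comparison and a mean of at least 1 CPM were eligible, and all 4 kinases. Correlations used 100000 permutations. Positions come from GENCODE, promoters from RefSeq (GRCm38.p6), and copies were sought with blastn 2.17.0. Alternatives were DESeq2 1.42.0, limma 3.58.1 on log2(TPM + 1) or log2(TPM + 0.1), other scalings and filters, thinned counts, all groups in one fit, a replicate block and leaving out libraries. Without the libraries over 10 CPM of oocyte markers was added after seeing the data.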

Additional observations from a re-analysis of the deposited data

Results flagged for a closer look

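The effect of side on Eif4ebp1 differed between the media. The interaction of side and hCG was -0.85 on the log2 scale (SE 0.16, FDR 0.000271; edgeR over all genes), from a side difference of -0.97 post-hCG and -0.12 without hCG. No other of the 7 members tested passed this test, and whether theca and stroma markers, whose summed level differed between the sides in both media, had any part in it was not tested.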

How the results depend on the processing

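Of 694 recomputed values of tested members, 639 kept their direction and side of the threshold, 34 gained a call and 4 lost it, all 4 for Phgdh with hCG on the ruptured side (0.13 to 0.21 with library totals or limma). Another 17 turned sign, each with an FDR of 0.6 or more. They were Asns between the sides post-hCG (-0.0694 with library totals, -0.0664, -0.0723 and -0.0664 with limma at the pseudocounts 1 and 0.1 and without a filter), Psat1 there (-0.1326 to 0.0674 without each library in turn, with 0.0311 and 0.0674 without unruptured replicate 1 or 9), and in the interaction Atf4 (0.0058 with no expression filter), Asns (-0.0359, -0.0257 and -0.0359), Psat1 (-0.0949, -0.0037 and -0.0949) and Phgdh (-0.1752, -0.1824 and -0.1752) with the same limma fits and Phgdh (-0.001) without the oocyte-marked libraries. Sesn2 without hCG and Eif4ebp1 post-hCG between the sides, and Eif4ebp1 in the interaction, were called under every alternative run. The number of members called between the sides without hCG was 1, and 2 with library totals and with all 4 groups in one fit (Asns added), and 1 to 2 without each library in turn, Asns being added in 5 of 29 fits (without putative unruptured replicate 2, 8 or 12 or putative ruptured replicate 1 or 12). Post-hCG it was 1, and 2 with DESeq2 and with no expression filter (Trib3 added), with RLE size factors (Sesn2) and with library totals (Atf4), 3 with limma on log2(TPM + 1) or log2(TPM + 0.1) (Atf4, Phgdh), 4 with limma and no filter, and 1 to 2 without each library in turn (Sesn2 added in 9 of 25, without unruptured replicate 1, 8, 10 or 12 or ruptured replicate 4, 7, 8, 9 or 10). With hCG on the unruptured side it was 5, and 8 with DESeq2, with no expression filter and with limma without a filter, and 6 (Phgdh added) with thinned counts, filtered limma, all 4 groups in one fit and without the oocyte-marked libraries. On the ruptured side it was 4, 5 with all 4 groups in one fit (Ddit3 added) and with limma without a filter (Chac1 and Eif4ebp1 added, Phgdh lost), and 6 with DESeq2 and with no expression filter. In the interaction it was 1, and 2 with limma and no filter (Trib3 added). The pairs of members that passed were 1, and 6 on log2(TPM + 1). The cause of these changes was not tested.

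A replicate block on the label numbers left the counts at 1, 1, 5, 4 and 1 and changed no call. Deviations of same-numbered libraries had mean correlations of -0.03, 0.01, 0.00 and 0.05 in the 4 pairwise comparisons. Single pairs ran from -0.29 to 0.463 between the sides without hCG. The numbers thus gave no sign of pairing, but sides of 1 follicle need not deviate together, so pairing is not excluded. Library totals moved the median of all genes by -0.05 and -0.15 between the sides without and with hCG, by -0.22 and -0.32 with hCG on the unruptured and ruptured side, and by -0.10 in the interaction, and changed all-gene calls from 801 higher and 812 lower to 585 and 905, from 862 and 971 to 397 and 1830, from 2365 and 2582 to 1455 and 3844, from 2532 and 2597 to 1376 and 4242, and from 426 and 466 to 230 and 660. Depth limits Atf5, Trib3 and Chac1, whose libraries held few counts.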

Other observations

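The mitochondrial stress list was kept apart from the lists of ATF4 targets. Of its 9 genes, 6 passed the filter and all 6 were higher post-hCG on both sides (edgeR), against 25.4% and 29.7% of all genes. The list medians were 0.63 and 0.97 on the log2 scale against -0.03 and 0.00 over all genes tested. Lonp1, a mitochondrial protease, rose by 1.58 on the unruptured side (SE 0.17, FDR 1.94e-09) and by 2.35 on the ruptured side (SE 0.16, FDR 2.04e-14), with an interaction of 0.78 (SE 0.23, FDR 0.0259). Hspd1, the mitochondrial chaperonin, rose by 0.76 (SE 0.10, FDR 1.15e-07) and by 1.497 (SE 0.097, FDR 7.35e-15), with an interaction of 0.73 (SE 0.13, FDR 0.000246). With library totals 5 of the 6 were called on each side.

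Of 8 measured cytosolic heat shock genes, 2 were higher post-hCG in unruptured-side libraries (25% of the list, against 25.4% of all genes) and 3 in ruptured-side libraries (37.5%, against 29.7%), shares near those of all genes. With library totals these were 1 higher and 1 lower, and 2 higher and 3 lower. Hsph1 rose by 0.78 (SE 0.11, FDR 8.65e-07) and by 1.07 (SE 0.10, FDR 1.27e-10). Hspb1, a small heat shock protein, was lower on the putative ruptured side (-1.33, SE 0.21, FDR 3.2e-05) and rose by 1.36 with hCG on that side (log2 1.365, SE 0.18, FDR 9.71e-08).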
